A study of Mus musculus with 9 samples.

Results

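The 34 genes described here mark the epithelia that lie on and beside the ovary. They were taken by name from the deposited table of 46078 genes, and all 34 were found there. They comprise 17 genes of motile cilia, 2 genes of the oviduct secretory cell, 6 genes of the ovarian surface epithelium and mesothelium, 4 keratins of simple epithelia and 5 genes of epithelial adhesion, tight junctions and secretion. The RNA-seq covered 5 WT and 4 ERβKO whole ovaries, with 1 library per mouse, all labelled as untreated C57BL/6J. In ERβKO mice exon 3 of Esr2, which encodes ERβ, was deleted in the germline, through a cross of floxed Esr2 mice with Rosa26-Cre deleter mice and then breeding of heterozygotes. The age of single mice was not given; the mice of all experiments of the study were 4 to 20 weeks old, and no staging by estrous cycle was made. The treatment text that the labels attach to every sample describes a diet and an injected ligand, while each ovary carries the label untreated, so the diet of these mice is not known.

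The oviduct is lined by multiciliated cells, whose beating cilia move the egg, and by secretory cells, which release glycoproteins into the lumen. The ovary itself is covered by a single layer of simple epithelium that is continuous with the mesothelium of the abdominal cavity, and in the mouse it sits inside a thin bursa joined to the oviduct. Multiciliated cells are also found in the rete ovarii, a remnant of tubules at the hilum that carries Pax8 as well. In a dissected whole ovary, these transcripts served here as a measure of the oviduct, bursa, rete and surface epithelium that came with the organ. Expression of the same genes in cells inside the ovary was not tested and would add to these levels. Fewer cells of a type and less RNA per cell cannot be told apart in bulk RNA.

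The libraries held 12353740 to 18717510 counted fragments, and by an exact permutation test, two-sided, these totals did not separate WT from ERβKO (p = 0.429). Markers of ovarian cells were present in every library, with summed levels of 580 to 1011 FPKM for 9 granulosa cell genes, 2532 to 6468 FPKM for 8 luteal cell genes and 32.7 to 142 FPKM for 8 oocyte genes. FPKM, as calculated by the authors, is the number of fragments per kilobase of gene, scaled to the mapped fragments of the library, and is the scale of every level given here. Esr2 was counted over all its exons, also those left undeleted in ERβKO mice, so its count could not check the labels (log2 fold change -0.023, edgeR adjusted p = 0.966). On the first principal component of all genes tested, WT replicate 2 stood at 9.43, while the other 4 WT ovaries ran from -43.8 to -15.6 and those of ERβKO mice from 19.4 to 35.3, and results that rest on it are given with and without it.

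None of the 34 genes passed the test between ERβKO and WT ovaries. All 34 passed edgeR's filter on low counts, and 0 of 34 met the criteria for a differentially expressed gene (DEG), which asked for a mean over 1 FPKM in at least 1 genotype, a log2 fold change beyond 0.4 in either direction and an adjusted p under 0.05. Of all 16722 genes tested, 1.72% met them. With DESeq2, 0 of 34 met them, against 4.66% of the genes with an adjusted p. The lowest adjusted p among the 34 genes was 0.143 in edgeR and 0.0728 in DESeq2, both for Foxj1. At an unadjusted p under 0.05, 6 of 34 were higher in the knockout (Foxj1, Tekt1, Dnaic1, Hydin, Upk1b and Krt7), against a background of 9.81%, and 0 of 34 were lower, against 10.0%. In no gene of the 34 did the levels of the genotypes separate without overlap, while 4.29% of all genes tested were higher in every ERβKO ovary than in any WT ovary and 3.31% were lower. The sign of the log2 fold change was positive for 30 of 34, against 49.9% of all genes tested. Their median log2 fold change was 0.30, and that of all genes tested was -0.0009. The 34 genes were read in the same 9 ovaries, so these counts are not of independent observations.

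**Figure D1:**
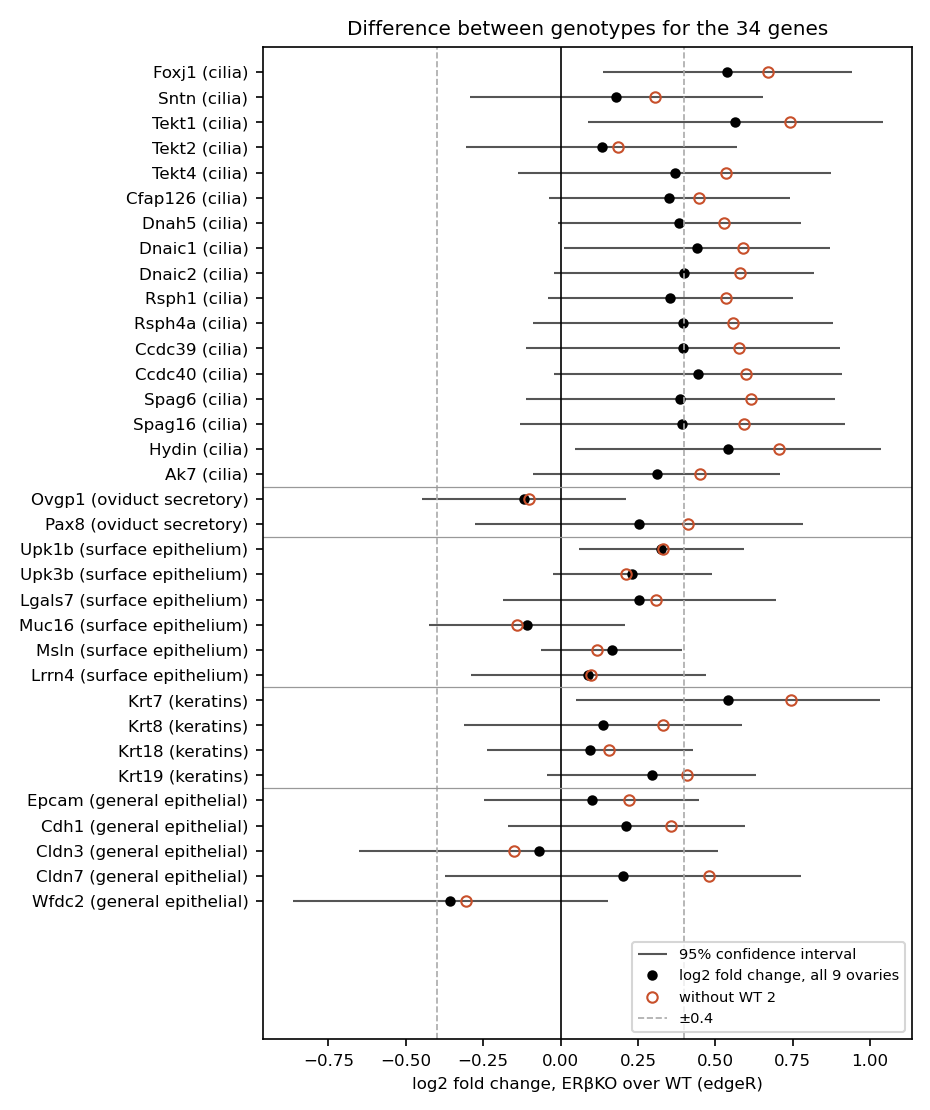
Log2 fold change of each of the 34 genes, ERβKO over WT (x axis, edgeR). Black points are fits to all 9 ovaries with 95% confidence intervals as lines, open circles leave out WT replicate 2, and dashed lines mark 0.4 in either direction. All 17 cilia genes lie above 0, and Ovgp1, Muc16, Cldn3 and Wfdc2 lie below it.

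The genes of motile cilia were present in every ovary, and all 17 leaned to higher levels in ERβKO ovaries without passing the test. Their log2 fold changes ran from 0.13 for Tekt2 to 0.56 for Tekt1, with a median of 0.39. Foxj1 (ENSMUSG00000034227, chromosome 11 of GRCm38 from 116330704 to 116335399) encodes the transcription factor that switches on the genes of motile cilia. It stood at 16.1, 31.5, 20.8, 27.5 and 19.3 FPKM in WT replicates 1 to 5. In the knockout it stood at 34.2, 42.7, 26.4 and 33.4 FPKM in ERβKO replicates 1 to 4. Only ERβKO replicate 3 fell within the WT range, below WT replicates 2 and 4. For Foxj1 the log2 fold change was 0.54 (standard error 0.18, 95% confidence interval 0.14 to 0.94), with an edgeR adjusted p of 0.143.

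Sntn, which encodes a protein of the tip of motile cilia, stood at 12.4, 25.6, 17.4, 21.8 and 16.1 FPKM in the WT ovaries. In the ERβKO ovaries its levels were 23.0, 29.1, 15.3 and 19.0 FPKM. The lowest ERβKO ovary lay below 4 of the 5 WT ovaries. For Sntn the log2 fold change was 0.18 (95% confidence interval -0.29 to 0.65, adjusted p = 0.687). Cfap126, whose product takes part in placing the basal bodies from which cilia grow, had the highest mean level of the 17 genes. It stood at 45.6, 71.2, 46.6, 73.8 and 52.4 FPKM in WT ovaries and at 71.0, 89.2, 68.1 and 78.9 FPKM in ERβKO ovaries. WT replicates 2 and 4 lay inside the ERβKO range and the other WT ovaries lay below it. For Cfap126 it was 0.35 (95% confidence interval -0.039 to 0.74, adjusted p = 0.302).

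The other 14 cilia genes followed the parts of the axoneme, the microtubule shaft of the cilium. Of the tektins, which stabilise its doublet microtubules, Tekt1 averaged 9.49 ± 2.8 FPKM in the 5 WT ovaries, against 14 ± 3.59 FPKM in the 4 ERβKO ovaries (mean ± SD, as in all such values). The log2 fold change was 0.56 for Tekt1, 0.37 for Tekt4 and 0.13 for Tekt2, with 95% confidence intervals that overlapped. Tekt2 shares 20.8% of its exon length with a gene on the opposite strand, and the strand setting of the counting is not given in the sources used here. Among the outer dynein arms, which drive the beat, the heavy chain gene Dnah5 had a log2 fold change of 0.38, and the intermediate chain genes Dnaic1 and Dnaic2 had 0.44 and 0.40. Their adjusted p values were 0.264, 0.243 and 0.279.

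Radial spokes carry signals from the central pair of microtubules to the dyneins. Their head genes Rsph1 and Rsph4a had log2 fold changes of 0.35 and 0.39. Ccdc39 and Ccdc40, which encode a pair of coiled-coil proteins that set the spacing of structures along the doublets, had 0.40 and 0.44. For Ccdc40 the deposited FPKM showed less of a difference than the counts, at 13.7 ± 6.39 FPKM in WT against 15.2 ± 5.25 FPKM in ERβKO ovaries. Ccdc39 shares 16.9% of its exon length with Ttc14 on the opposite strand. The genes of the central apparatus, Spag6, Spag16 and Hydin, had log2 fold changes of 0.39, 0.39 and 0.54, and the adenylate kinase gene Ak7 had 0.31. The row named Spag6 lies on chromosome 16, where RefSeq places Spag6l, a near-identical copy. The lowest adjusted p of the 14 was 0.186, for Tekt1.

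Levels of the cilia genes varied among the 9 ovaries. The highest ovary exceeded the lowest by 1.96 to 3.16 times for a cilia gene, with a median of 2.47. The same ovaries stood at the ends for nearly every cilia gene. WT replicate 1 was the lowest of the 9 ovaries for 16 of 17, and ERβKO replicate 2 was the highest for 15 of 17. Divided by the median of its 9 ovaries, a cilia gene stood typically at 0.621, 1.33, 0.774, 1.00 and 0.737 in WT replicates 1 to 5 (medians over the 17 genes). It stood at 1.24, 1.54, 0.928 and 1.11 in ERβKO replicates 1 to 4. WT replicate 2 therefore ranked with the ERβKO ovaries and ERβKO replicate 3 with the WT ovaries.

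**Figure D2:**
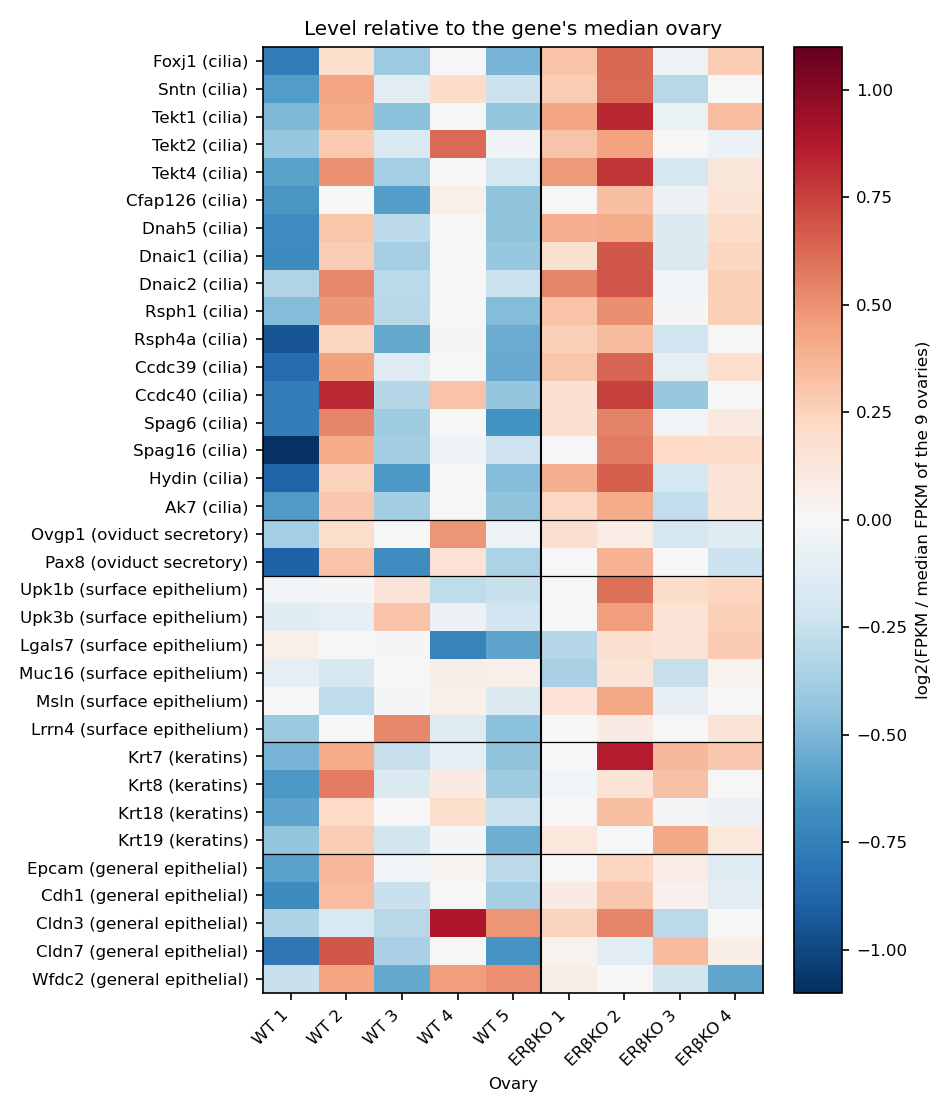
Level of each of the 34 genes (rows) in each ovary (columns), as log2 of the FPKM over the gene's median in the 9 ovaries. Blue is below and red above the median. WT replicate 1 is blue through the cilia and keratin genes but not through all surface epithelium genes, and ERβKO replicate 2 is red for most genes of both kinds.

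Without WT replicate 2, 5 of the 34 genes met the criteria, all higher in ERβKO ovaries, against 5.56% of all genes tested in that fit. These were the cilia genes Foxj1 (log2 fold change 0.67, adjusted p = 0.0387), Tekt1 (0.74, adjusted p = 0.0414), Dnaic2 (0.58, adjusted p = 0.0387) and Rsph1 (0.53, adjusted p = 0.0326), and the keratin gene Krt7 (0.74, adjusted p = 0.0338), all from edgeR. Leaving out any other single ovary gave 0 of 34. The 6 genes at an unadjusted p under 0.05 (edgeR) also rested on single ovaries. They became 20 without WT replicate 2, 0 without ERβKO replicate 2, and 2 without WT replicate 1 or WT replicate 5. With any other ovary left out they were 4 to 9. The share of all genes at that p in these fits is not given here. WT replicate 2 was the WT ovary nearest the ERβKO ovaries on the first principal component. It stood above the median of the 9 ovaries for 17 of 17 cilia genes, so leaving it out lowered their WT levels. The DEGs among all genes rose from 287 to 919 without it.

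Luteal cell markers were highest in the ovaries with the lowest levels of cilia genes. The 17 cilia genes summed to 164, 319, 195, 269 and 192 FPKM in WT replicates 1 to 5 and to 300, 370, 239 and 289 FPKM in ERβKO replicates 1 to 4. The 8 luteal genes summed to 5867, 2769, 3778, 4001 and 6468 FPKM in the same WT ovaries and to 2532, 2560, 3776 and 2700 FPKM in the ERβKO ovaries. WT replicates 1 and 5, with the most luteal transcripts, were the ovaries with the least cilia transcript, and the part of luteal content in the cilia levels was not tested. Granulosa cell markers summed to 580 to 670 FPKM in WT and to 790 to 1011 FPKM in ERβKO ovaries. Smooth muscle markers, found in the oviduct wall, vessels and theca, summed to 672 to 1195 FPKM in WT and to 693 to 847 FPKM in ERβKO ovaries, with WT replicate 2 the highest of all. Theca and stroma markers summed to 388 to 623 FPKM in WT and to 597 to 954 FPKM in ERβKO ovaries. Adipocyte markers, a sign of bursal fat, summed to 165 to 298 FPKM in WT and to 179 to 1079 FPKM in ERβKO ovaries, highest in ERβKO replicate 1, and their part was not tested either.

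**Figure D3:**
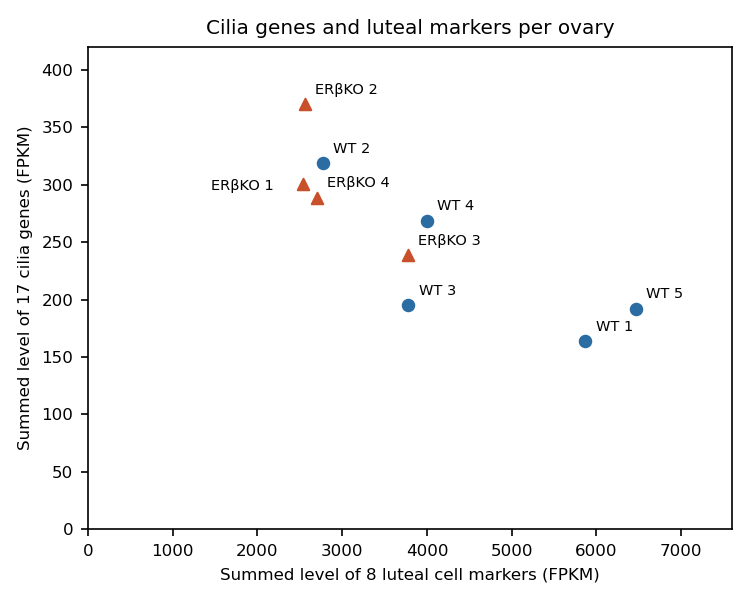
Summed FPKM of the 17 cilia genes (y axis) against that of 8 luteal cell markers (x axis) in each ovary, WT as circles and ERβKO as triangles. WT replicates 1 and 5 lie at the right with 164 and 192 FPKM of cilia genes, and WT replicate 2, at 319 FPKM, lies among the ERβKO ovaries.

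A wider list of 88 genes of motile cilia, chosen by function, leaned the same way. Of these 80 were in the table and 79 were tested, 0 met the criteria in edgeR (1.72% of all genes tested) and 1 did in DESeq2 (4.66%). The log2 fold change was positive for 76 of 79, with a median of 0.35, and at an unadjusted p under 0.05 the count of genes higher in the knockout was 19 of 79, against 9.81% of all genes tested. The 2 with the highest mean level were Tppp3, a tubulin-binding protein gene, at 42.3 ± 16.0 FPKM in WT against 59.4 ± 9.77 FPKM in ERβKO ovaries, and Fam183b, at 39.6 ± 14.2 and 51.6 ± 14.4 FPKM. Their log2 fold changes were 0.46 and 0.36, with adjusted p values of 0.287 and 0.439. Dnah2, an inner arm dynein heavy chain gene and the call of DESeq2, had a fold change of 0.97 on the log2 scale (standard error 0.26, edgeR adjusted p = 0.0792, DESeq2 adjusted p = 0.00823). Without WT replicate 2, 12 of the 78 tested then met the criteria, against 5.56% of all genes. In WT replicates 1 to 5 the 80 genes in the table summed to 449, 836, 549, 744 and 545 FPKM. In ERβKO replicates 1 to 4 they summed to 788, 966, 632 and 753 FPKM. These sums ranked the 9 ovaries in the same order as those of the 17 cilia genes. Genes of both lists were read in the same ovaries and varied together, so their counts are not of independent observations. The lean was not particular to cilia genes. In the wider lists of oviduct, surface and epithelial genes, the sign was positive for 42 of 52 tested, with a median of 0.14. Of markers of other cells tested, it was positive for 9 of 9 granulosa, 9 of 9 adipocyte, 7 of 7 oocyte and 3 of 5 theca and stroma genes. It was positive for 3 of 9 smooth muscle and 1 of 8 luteal genes.

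The cilia genes also shared letters of their promoters, which the choice of genes did not use. RFX factors act with Foxj1 in turning on genes of motile cilia and bind the X-box, whose half-sites GTTGCC and GTTACC were searched on both strands from 250 bases before to 50 bases after each RefSeq transcript start (GRCm38.p6). A window was held for 27 of the 34 genes. A half-site was present in 10 of 14 cilia genes (71.4%), in 1 of 13 of the others (7.69%, Muc16) and in 20.8% of all 27025 genes with a window. In the wider list it was present in 40 of 66 cilia genes (60.6%), and among 40 other genes of oviduct, surface and epithelium in 22.5%. The forkhead core GTAAACA, which does not overlap these half-sites, was present in 2 of 14 cilia genes (14.3%, Sntn and Ak7) and in 4.05% of all genes. The stretches below are shown because they hold these letters in cilia genes described above. Capitals mark the matches on either strand, with GGCAAC and GGTAAC the reverse of the half-sites and TGTTTAC that of the forkhead core.
Spag16 (chr1:69826826-69826897, plus strand): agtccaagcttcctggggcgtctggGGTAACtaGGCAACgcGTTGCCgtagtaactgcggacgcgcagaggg
Hydin (chr8:110266939-110267004, plus strand): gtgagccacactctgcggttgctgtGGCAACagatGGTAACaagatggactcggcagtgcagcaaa
Tekt1 (chr11:72361867-72361994, minus strand): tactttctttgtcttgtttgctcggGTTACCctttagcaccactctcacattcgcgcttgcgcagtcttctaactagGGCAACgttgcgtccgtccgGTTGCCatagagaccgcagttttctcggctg
Dnaic2 (chr11:114727368-114727423, plus strand): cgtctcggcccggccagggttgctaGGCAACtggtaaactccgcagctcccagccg
Sntn (chr14:13670626-13670840, plus strand): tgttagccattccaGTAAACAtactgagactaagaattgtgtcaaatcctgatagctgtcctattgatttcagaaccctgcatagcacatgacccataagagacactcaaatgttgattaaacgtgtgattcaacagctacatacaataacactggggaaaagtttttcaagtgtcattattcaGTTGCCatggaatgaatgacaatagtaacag
Ak7 (chr12:105705826-105705882, plus strand): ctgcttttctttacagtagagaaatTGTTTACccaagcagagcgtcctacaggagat

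Spag16 and Tekt1 each held 3 half-sites and Hydin held 2, within stretches of 72, 128 and 66 bases. A match is a run of letters and was not tested as a binding site. Cfap126, Dnah5 and Ccdc40 held neither motif in these windows.

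**Figure D4:**
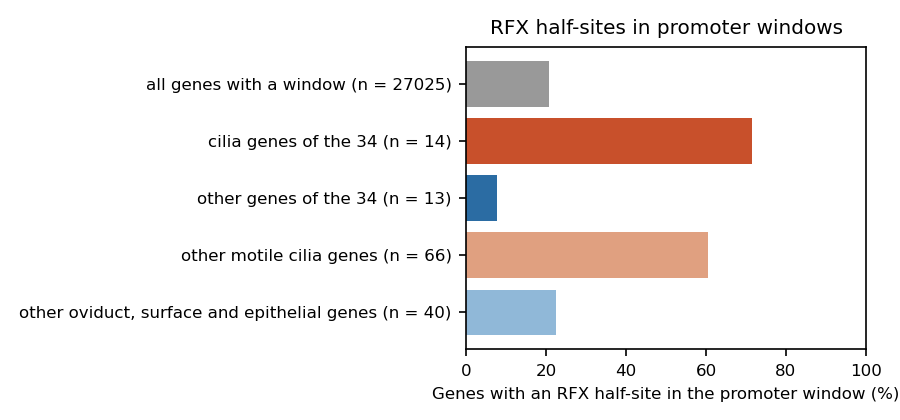
Share of genes (x axis, percent) with an RFX half-site in the promoter window, for all genes with a window, the 34 genes split into cilia and others, and the wider lists; n is the number of genes with a window. The bars for cilia genes reach 71.4% and 60.6%, and the bar for all genes 20.8%.

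The secretory genes included the highest level of the 34 and gave no call between genotypes. Ovgp1 (ENSMUSG00000074340, chromosome 3 of GRCm38 from 105973711 to 105987423) encodes the oviduct glycoprotein secreted around the egg and embryo. It stood at 1294, 1921, 1682, 2359 and 1616 FPKM in WT replicates 1 to 5. In ERβKO replicates 1 to 4 it stood at 1906, 1785, 1483 and 1533 FPKM. All ERβKO values lay within the WT range. By FPKM, Ovgp1 ranked 14 to 18 among all genes of an ovary, and it took 0.313% to 0.588% of all counted fragments. Its log2 fold change was -0.12 (95% confidence interval -0.45 to 0.21, adjusted p = 0.701), and another annotated gene on its strand overlaps 28.7% of its exon length.

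Pax8, a transcription factor of the oviduct secretory cell, stood at 8.27, 19.0, 9.57, 17.1 and 12.0 FPKM in WT ovaries. Its levels in ERβKO ovaries were 15.3, 20.03, 15.3 and 13.0 FPKM. WT replicates 1, 3 and 5 lay below every ERβKO ovary and WT replicates 2 and 4 within their range. For Pax8 the log2 fold change was 0.25 (95% confidence interval -0.28 to 0.78, adjusted p = 0.600). For both genes WT replicate 1 was the lowest ovary.

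Further genes of oviduct secretory epithelium and Müllerian duct identity were chosen by function. Of 15 listed, 12 were tested and 0 met the criteria, against 1.72% of all genes tested. The 2 highest were Cd24a, a surface glycoprotein gene, at 117 ± 45.3 FPKM in WT against 133 ± 15.5 FPKM in ERβKO ovaries, and Emx2, a homeobox gene of the reproductive tract, at 16.6 ± 3.36 and 18.7 ± 1.14 FPKM. Their adjusted p values were 0.732 and 0.475. Hoxa13, which marks the lower reproductive tract, was listed at 0 FPKM in all 9 ovaries.

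**Figure D5:**
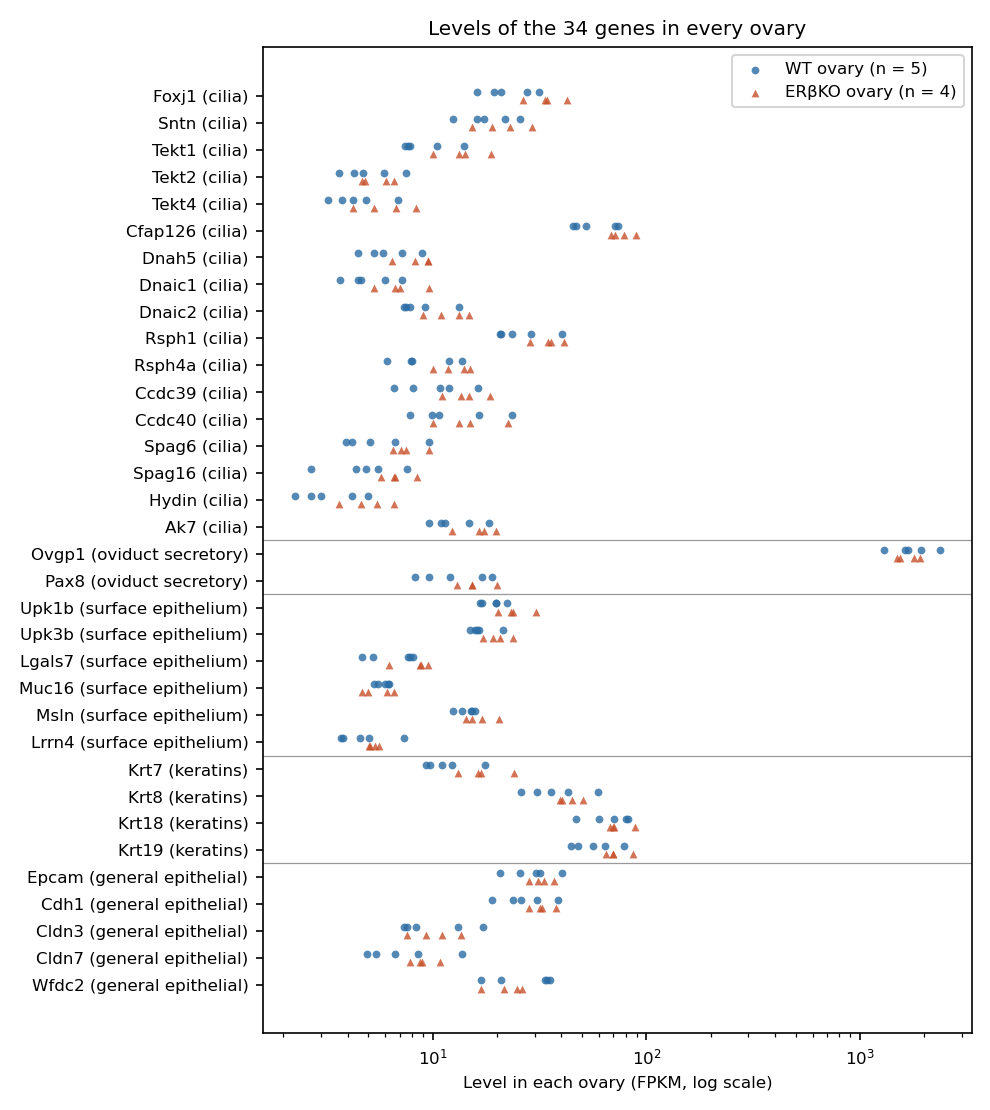
Level of each of the 34 genes in each ovary (x axis, FPKM on a log scale), WT as circles and ERβKO as triangles. Ovgp1 lies between 1294 and 2359 FPKM, far above the other genes, and the genotypes overlap in every row.

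The surface epithelium genes varied less among ovaries than the cilia genes. For them the highest ovary exceeded the lowest by 1.41 to 2.03 times (median 1.73), WT replicate 1 was the lowest for 0 of 6, ERβKO replicate 2 was the highest for 4 of 6 as it was for most cilia genes, and 5 of 6 had a positive log2 fold change, with a median of 0.20. Upk1b (ENSMUSG00000049436, chromosome 16 of GRCm38 from 38773184 to 38800203) is a uroplakin gene that marks mesothelium and ovarian surface epithelium. It stood at 19.8, 19.9, 22.2, 16.6 and 17 FPKM in WT ovaries. In ERβKO ovaries it stood at 20.1, 30.5, 23.2 and 23.7 FPKM. Only ERβKO replicate 1 lay within the WT range. Its log2 fold change was 0.33 (standard error 0.12, 95% confidence interval 0.059 to 0.59, adjusted p = 0.175), and it was 0.33 without WT replicate 2 as well. With 1 ovary left out it ran from 0.215, without ERβKO replicate 2, to 0.417, without ERβKO replicate 1. It was 0.231 with the libraries numbered below 200.

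Upk3b, another uroplakin gene of mesothelium, stood at 15.7, 16.2, 21.4, 16.4 and 14.9 FPKM in WT and at 17.2, 23.7, 19.1 and 20.7 FPKM in ERβKO ovaries. WT replicate 3 stood above the rest of its group, and the other WT ovaries lay below every ERβKO ovary. For Upk3b the log2 fold change was 0.23 (95% confidence interval -0.024 to 0.49, adjusted p = 0.298). Lgals7, a galectin gene of epithelia, stood at 8.12, 7.81, 7.70, 4.69 and 5.24 FPKM in WT and at 6.27, 8.83, 8.68 and 9.54 FPKM in ERβKO ovaries. WT replicates 4 and 5 were the lowest, and ERβKO replicate 1 lay within the WT range (log2 fold change 0.25, adjusted p = 0.515).

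The other 3 surface genes had the log2 fold changes nearest to 0 in the group. Msln, which encodes the mesothelial protein mesothelin, averaged 14.5 ± 1.34 FPKM in WT against 16.7 ± 2.68 FPKM in ERβKO ovaries. Muc16, which encodes a mucin that binds mesothelin, had 5.86 ± 0.423 and 5.61 ± 0.918 FPKM. The deposited Muc16 row covers only chromosome 9 from 18495455 to 18512885, and the promoter window with its half-site lies outside that interval. Lrrn4, a leucine-rich repeat gene of mesothelium, had 4.89 ± 1.46 and 5.27 ± 0.258 FPKM. Their log2 fold changes were 0.17, -0.11 and 0.09, with adjusted p values of 0.401, 0.715 and 0.813.

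Among 14 tested of 16 further genes of the surface epithelium, 1 met the criteria, against 1.72% of all genes tested. Rspo1, which encodes a secreted enhancer of Wnt signalling, stood at 8.63, 10.3, 8.74, 9.78 and 9.87 FPKM in WT and at 12.7, 14.3, 13.4 and 13.0 FPKM in ERβKO ovaries. The genotypes did not overlap, as was the case upward in 4.29% of all genes tested. Its log2 fold change was 0.47 (standard error 0.083, edgeR adjusted p = 0.0226), and over the alternatives its adjusted p ran from 0.000154 to 0.0928. Lgr5, a receptor gene for R-spondins, named after its values were seen, separated the other way, as did 3.31% of all genes tested. It stood at 9.04, 7.49, 7.95, 7.21 and 7.65 FPKM in WT and at 5.51, 7.20, 6.23 and 5.49 FPKM in ERβKO ovaries, and did not pass the test (log2 fold change -0.39, edgeR adjusted p = 0.0845). The 2 highest of this list, Ezr, a gene of the cell cortex, and Wt1, a transcription factor gene also used by other ovarian cells, had log2 fold changes of 0.38 and 0.03, with adjusted p values of 0.281 and 0.890.

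Among the keratins WT replicate 1 was the lowest ovary for 3 of 4, and WT replicate 2 was among the top 2 for all 4. Krt7 had the largest log2 fold change of the 4, and stood at 9.26, 17.5, 11.1, 12.3 and 9.74 FPKM in WT ovaries. In ERβKO ovaries it stood at 13.2, 24.0, 16.9 and 16.3 FPKM. WT replicate 2 lay above 3 of the 4 ERβKO ovaries, and ERβKO replicate 2 above all others. For Krt7 the log2 fold change was 0.54 (standard error 0.22, 95% confidence interval 0.051 to 1.03, adjusted p = 0.214).

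Krt8 and Krt18 encode the pair of keratins that form the filaments of simple epithelia. Krt8 stood at 26.0, 59.4, 35.9, 42.8 and 30.6 FPKM in WT and at 39.4, 44.7, 50.3 and 40.2 FPKM in ERβKO ovaries. Krt18 stood at 47.0, 81.9, 70.3, 80.2 and 59.8 FPKM in WT and at 70.4, 88.6, 69.9 and 67.3 FPKM in ERβKO ovaries. For both, the ERβKO ovaries lay within or near the WT range, and the log2 fold changes were 0.14 and 0.09 (adjusted p = 0.754 and 0.773). Krt19, a keratin of simple and ductal epithelia, stood at 47.9, 78.3, 56.2, 64.1 and 44.6 FPKM in WT and at 70.1, 64.7, 86.2 and 70.0 FPKM in ERβKO ovaries. WT replicates 1, 3, 4 and 5 lay below every ERβKO ovary (log2 fold change 0.29, adjusted p = 0.319).

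Of the genes of adhesion and tight junctions, Epcam, an epithelial adhesion molecule gene, stood at 20.7, 40.1, 30.6, 31.9 and 25.6 FPKM in WT and at 31.2, 36.9, 33.1 and 28.4 FPKM in ERβKO ovaries. Cdh1, which encodes E-cadherin, stood at 19.0, 38.7, 25.8, 30.6 and 23.8 FPKM in WT and at 32.6, 37.7, 31.7 and 28.3 FPKM in ERβKO ovaries. WT replicate 2 was the highest and WT replicate 1 the lowest ovary for both, so that the ERβKO ovaries lay inside the WT range. The log2 fold changes were 0.10 (95% confidence interval -0.25 to 0.45) and 0.21 (-0.17 to 0.60), with adjusted p values of 0.768 and 0.531.

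Claudins seal tight junctions, and Cldn7 and Cldn3 had log2 fold changes of 0.20 and -0.07. Wfdc2, which encodes a secreted protease inhibitor of reproductive tract epithelium, had the lowest log2 fold change of the 34, at -0.36 (95% confidence interval -0.87 to 0.15, adjusted p = 0.420). It was -0.07 with the libraries numbered below 200 and -0.24 without WT replicate 5 or ERβKO replicate 4. It averaged 28.2 ± 8.60 FPKM in WT against 22.3 ± 4.16 FPKM in ERβKO ovaries, and its highest ovary was WT replicate 5, one of the lowest for cilia genes. Among 26 tested of 30 further epithelial genes, 0 met the criteria, against 1.72% of all genes tested. Spint2, a protease inhibitor gene, and Ehf, an epithelial transcription factor gene, had the highest levels, with log2 fold changes of 0.10 and 0.03 and adjusted p values of 0.747 and 0.955.

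The leading genes of the 5 groups were compared across the 9 ovaries on log2 FPKM, in 10 pairs with exact permutation tests and Benjamini-Hochberg adjustment. Krt18 and Epcam varied together (Pearson's r = 0.944, p = 0.000411, adjusted p = 0.00411; Spearman's rho = 0.883, p = 0.00308, adjusted p = 0.0308). Without the 2 ovaries farthest from the median of Krt18, r was 0.864, and r of the deviations from the genotype means was 0.940. Ovgp1 and Upk1b had r = -0.268 (exact permutation p = 0.486, adjusted p = 0.486; rho = -0.267, p = 0.493, adjusted p = 0.548). Cfap126 and Ovgp1 had r = 0.491 (exact permutation p = 0.182, adjusted p = 0.303; rho = 0.5, p = 0.178, adjusted p = 0.296). For this pair r was 0.212 without the 2 ovaries farthest from the median of Cfap126, and r of the deviations from the genotype means was 0.771, which was not tested. No other pair passed the adjustment for r. With Krt18, r was 0.759 for Cfap126 and 0.749 for Ovgp1 (exact permutation, adjusted p = 0.0629 and 0.0745). With Epcam, r was 0.688 for Cfap126 and 0.624 for Ovgp1 (adjusted p = 0.0924 and 0.144). Upk1b had r = 0.443 with Cfap126, 0.360 with Krt18 and 0.361 with Epcam. The library numbers in the labels set apart WT replicates 4 and 5, and these 2 are too few for a value of their own.

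Over all 34 genes, WT replicate 1 was the lowest ovary for 25 and ERβKO replicate 2 the highest for 22. ERβKO replicate 2 was among the top 2 ovaries for 28, and WT replicate 2 for 18.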

How the data were processed

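RNA-seq libraries of whole ovaries from 5 WT and 4 ERβKO mice were analysed, 1 per mouse. The deposited table holds unnormalized fragment counts, which the authors made with STAR and featureCounts on GRCm38 (mm10) after Trim Galore and, per the labels, bcl2fastq 2.20.0.422; the annotation release and the strand setting of the counting are not given in the sources used here. The FPKM values were calculated by the authors with StringTie, and rows of one gene were summed. The deposited coverage and TPM columns were not used.

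Counts were tested in R 4.3.3 with edgeR 4.0.16 (filterByExpr, TMM, quasi-likelihood test, genotype as the factor) and Benjamini-Hochberg adjustment over 16722 genes; the thresholds for a DEG are those of the study. Its tool, DESeq2 (1.42.0), and limma (3.58.1) on log2(FPKM + 1) or log2(FPKM + 0.1) were alternatives, as were upper-quartile factors or DESeq2's size factors in edgeR, other filters (none, or at least 10 counts in every library), a replicate block, the libraries numbered below 200, and each library left out. Confidence intervals are of 95%. Exact permutation tests were run under Python 3.11.15 (SciPy 1.17.1, NumPy 2.4.6; tables in pandas 2.3.3). In 200 genes changed in simulated counts, edgeR called 97.0% (16574 genes tested), DESeq2 96.5% and limma 97.0% (16722 genes each). Of the calls, 5.83% were false with edgeR, 11.5% with DESeq2 and 6.28% with limma. These shares hold only for the changes put into the simulated counts. The log2 fold changes of the oviduct and surface epithelium genes ran from -0.36 to 0.56. How often changes of that size would be called was not tested. Depth was 12353740 to 18717510 counts. The p-values between genotypes set the difference against the spread between these mice.

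The 34 genes and the wider lists were chosen with earlier results of these data known. Levels in every ovary are given for the oviduct, surface, keratin and adhesion markers chosen as the main ones, the gene of highest mean FPKM in each group and any DEG; of a wider list, the DEGs and the 2 genes of highest mean FPKM are named. Dnah2 and Lgr5 were named after their values were seen. Promoter windows and gene positions are from RefSeq and GENCODE tables of GRCm38. Chromatin data and other experiments of the paper were not used here.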

Additional observations from a re-analysis of the deposited data

Results flagged for a closer look

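Of 68 groups of values tested (34 genes in each genotype), 2 held an ovary far from the rest of its group by Dixon's criterion, which flags about 1 group in 20 by chance. Upk3b stood at 21.4 FPKM in WT replicate 3, above the other 4 WT ovaries. Krt18 stood at 88.6 FPKM in ERβKO replicate 2, above the other 3 ERβKO ovaries.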

How the results depend on the processing

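No gene of the 34 was called under any alternative except without WT replicate 2, and all 17 cilia genes kept a positive log2 fold change under all of them. Leaving out 1 ovary gave 0 to 5 of the 34 called, 0 to 12 of the wider cilia list (DESeq2: 1) and 0 to 3 of the other oviduct, surface and epithelial genes. The 287 DEGs of all genes became 805 with DESeq2, 51 with the libraries numbered below 200, 39 with limma without a filter on FPKM, and 60 to 919 with 1 ovary left out. Rspo1 was the 1 call among the other oviduct, surface and epithelial genes, of which 0 were left with the libraries numbered below 200. With the replicate number as a block, 155 DEGs were called, 0 of the other oviduct, surface and epithelial genes, and the log2 fold change was 0.081 for Cldn3 and -0.19 for Wfdc2. Deviations of same-numbered ovaries from their group means correlated by 0.0948, 0.130, -0.043 and -0.011, and 0 of 8 ovaries correlated best with their own number, so the numbers were not taken to pair the ovaries. Signs turned for small log2 fold changes. With 1 ovary left out, Ovgp1 ran from -0.21 to 0.0033 (above 0 without WT replicate 4), Krt18 from -0.012 to 0.17 and Epcam from -0.0054 to 0.22 (both below 0 without WT replicate 1), and Cldn3 from -0.22 to 0.15 (above 0 without WT replicate 4, WT replicate 5 or ERβKO replicate 3). With the libraries numbered below 200, Ovgp1 was 0.020, Lrrn4 -0.040 and Cldn3 0.39, and with limma Cldn3 was 0.0037 at a pseudocount of 1, with or without the filter, and 0.0077 at 0.1. The causes were not tested. Among the values of single genes over all alternatives, 628 kept their sign and side of the threshold, 13 turned sign and 5 newly passed it.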
